A study of Mus musculus with 18 samples.

Results

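Major urinary protein (Mup) genes were examined in mouse liver after dietary removal of riboflavin (vitamin B2), with and without fenofibrate, a drug that activates the nuclear receptor PPARα. The genes considered were Mup3, Mup7, Mup11, Mup12, Mup14, Mup17, Mup20 and Mup21, taken by name. They were 8 of the 21 genes named Mup and a number, beside 27 Mup pseudogenes, among 54532 genes. They were selected on the measured values of these same libraries, in which their FPKM was low on the deficient diet. Their diet differences are therefore given as a description, without a test. All animals were wild-type male C57BL/6J mice that started their diet at 4 wk of age and were fasted overnight before harvest. Ctrl mice (n = 5) ate the control diet and B2D mice (n = 5) the 99% riboflavin-deficient diet for 4 wk. Ctrl_FF and B2D_FF mice (n = 4 each) ate the same diets for 9 wk and received 300 mg/kg fenofibrate daily by gavage in weeks 7 to 9, the last dose 2 h before harvest. Each mouse gave 1 mRNA library from whole liver, and the 18 libraries held between 15320729 and 21898502 reads on genes. The groups with fenofibrate also had more weeks of diet and were normalized in a table of their own, so those factors cannot be told apart between experiments.

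Mup genes code for small lipocalins, barrel-shaped carriers of hydrophobic ligands. The liver secretes them into blood, the kidney filters them, and in urine they carry and slowly release volatile pheromones. Mup20 codes for darcin, a male pheromone in its own right. In mouse liver the family is known for high transcript levels, for higher levels in males than in females, and for control by pulses of growth hormone acting through STAT5b. Testosterone, thyroid hormone and glucocorticoids are also known inputs. The genes arose by repeated duplication, and many copies differ at only a few bases.

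The 8 genes lay on the minus strand of chromosome 4 (GRCm38), within 2.08 Mb between 60066469 and 62150863. From low to high coordinate they were Mup7 (60066469 to 60070475), Mup11 (60658466 to 60662411), Mup12 (60737383 to 60741326) and Mup14 (61300023 to 61304000). Then came Mup17 (61591929 to 61595871), Mup20 (62050234 to 62054158), Mup3 (62083476 to 62087342) and Mup21 (62147932 to 62150863), and all 8 are annotated as protein-coding. The span of all 21 Mup genes was 2.19 Mb, and 20 of the 21 were on the minus strand. Sequence split the 8 genes into 5 near-identical copies (Mup7, Mup11, Mup12, Mup14 and Mup17) and 3 divergent genes (Mup3, Mup20 and Mup21). The split was made after the sequences and values had been seen. It is shown by a coding stretch of 60 bases, taken from GENCODE M21 as the ungapped stretch with the most variable positions among the 8 genes. It starts at base 244 of the coding sequence in Mup7, Mup12, Mup14 and Mup17, 247 in Mup11, Mup20 and Mup21, and 256 in Mup3. Capitals mark the 20 positions at which the 8 genes do not all hold the same base.
Mup3: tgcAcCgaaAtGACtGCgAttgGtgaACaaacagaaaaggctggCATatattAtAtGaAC
Mup21: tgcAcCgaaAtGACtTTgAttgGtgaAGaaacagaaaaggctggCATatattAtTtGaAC
Mup20: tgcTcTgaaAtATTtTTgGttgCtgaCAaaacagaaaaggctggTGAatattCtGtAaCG
Mup7: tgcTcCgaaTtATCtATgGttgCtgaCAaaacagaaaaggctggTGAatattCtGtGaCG
Mup11: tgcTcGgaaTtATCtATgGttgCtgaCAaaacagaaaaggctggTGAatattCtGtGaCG
Mup12: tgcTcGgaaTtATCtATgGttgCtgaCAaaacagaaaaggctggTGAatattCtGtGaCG
Mup14: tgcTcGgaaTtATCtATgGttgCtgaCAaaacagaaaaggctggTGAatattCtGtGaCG
Mup17: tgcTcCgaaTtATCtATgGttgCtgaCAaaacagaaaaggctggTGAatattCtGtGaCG

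Against Mup11, this stretch held no difference in Mup12 and Mup14, 1 in Mup7 and in Mup17, 5 in Mup20, 17 in Mup21 and 18 in Mup3. Over whole coding sequences, pairs of the 5 near-identical genes shared between 98.5% and 99.6% of aligned bases, with gaps left out. Mup3 and Mup21 shared 96.2% with each other. Mup20 shared between 90.6% and 91.5% with the near-identical copies and 89.7% with Mup3. These distances bear on the counts, because the authors' handling of reads that match several genes is not given in the sources used here. Of all stretches of 150 bases (the length of 1 read) in a gene's transcripts, 100% occurred in no other gene for Mup3 and for Mup21. The share was 68.9% for Mup20, whose other stretches were shared with Mup-ps19 alone. It was 59.6% for Mup17, 35.2% for Mup11, 34.3% for Mup14, 32.9% for Mup7 and 24.1% for Mup12. Levels of single near-identical genes are thus uncertain, and sums are given beside them.

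RefSeq (GRCm38.p6) held a promoter window, from 250 bases before to 50 bases after the annotated start, for 6 of the 8 genes. Mup12 and Mup20 had no entry. Both divergent genes with an entry and 2 near-identical genes are printed to show how much of the upstream sequence the members have in common. Capitals mark the run AAAACATTCCACAAAGCCT, the longest that all 6 windows share, and TATATAA. All are on the minus strand.
Mup3 (chr4:62087268-62087567): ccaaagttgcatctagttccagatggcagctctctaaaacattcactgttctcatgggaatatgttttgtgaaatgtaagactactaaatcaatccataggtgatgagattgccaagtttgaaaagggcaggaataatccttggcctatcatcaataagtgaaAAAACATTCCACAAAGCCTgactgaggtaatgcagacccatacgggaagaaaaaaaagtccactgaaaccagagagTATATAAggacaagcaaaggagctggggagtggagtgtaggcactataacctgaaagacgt
Mup21 (chr4:62150792-62151091): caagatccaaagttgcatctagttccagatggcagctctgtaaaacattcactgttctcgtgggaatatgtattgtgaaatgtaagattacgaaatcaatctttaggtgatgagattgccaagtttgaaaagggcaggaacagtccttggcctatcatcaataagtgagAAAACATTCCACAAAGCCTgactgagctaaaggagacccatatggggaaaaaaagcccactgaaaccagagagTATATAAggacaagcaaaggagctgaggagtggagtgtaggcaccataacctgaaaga
Mup11 (chr4:60662346-60662645): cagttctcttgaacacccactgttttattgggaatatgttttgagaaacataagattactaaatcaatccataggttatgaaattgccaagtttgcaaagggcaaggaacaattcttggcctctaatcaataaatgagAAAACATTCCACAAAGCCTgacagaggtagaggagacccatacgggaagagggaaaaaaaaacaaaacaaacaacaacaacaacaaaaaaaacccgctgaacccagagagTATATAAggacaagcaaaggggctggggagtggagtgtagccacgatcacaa
Mup7 (chr4:60070426-60070725): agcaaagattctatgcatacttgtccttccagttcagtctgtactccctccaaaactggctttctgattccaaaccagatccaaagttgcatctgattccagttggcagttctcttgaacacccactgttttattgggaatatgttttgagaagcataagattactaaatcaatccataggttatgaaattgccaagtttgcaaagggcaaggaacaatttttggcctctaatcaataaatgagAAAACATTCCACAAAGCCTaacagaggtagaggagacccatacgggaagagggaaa

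The shared run is 19 bases long and began between 6 and 135 bases before the annotated start. It occurred on either strand in 11 of 27025 promoter windows of the mouse genome (0.0407%), and all 11 belonged to Mup genes, of which 14 had a window. TATATAA occurred in 5 of the 6 windows, all but that of Mup7, and in 3.46% of all windows. In Mup7 the run began 6 bases before the annotated start, against 81 to 135 in the other 5. The Mup7 window thus ends before the place that TATATAA takes after the run in those 5, and cannot show whether Mup7 has it. The letters ATCAAT, those of a ONECUT motif, were in 6 of 6 and in 7.76% of all windows. TGTTCT, one part of the glucocorticoid receptor motif, was in 2 of 6 and in 19.0% of all. The STAT motif TTCNNNGAA was in none of the 6 and in 8.47% of all windows. All motifs were searched on both strands, and these matches describe letters only. The motifs were chosen after the sequences were seen. The windows of Mup11 and Mup17 shared 99.6% of aligned bases, those of Mup3 and Mup21 94.2%, and pairs across the divergent and near-identical genes between 84.0% and 88.6%.

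In Ctrl liver the 8 genes together were abundant, and on the deficient diet their sum was several-fold lower. Their summed FPKM (fragments per kilobase, corrected for sequencing depth) was 15977 ± 3823 (SD, n = 5), which was 64.5% ± 11.5 of the FPKM of Alb, the gene for serum albumin. Of all reads on genes they took 1.603% ± 0.325. On the B2D diet the sum was 4638 ± 1829 (n = 5), or 18.6% ± 6.86 of Alb and 0.495% ± 0.188 of reads. The 5 Ctrl mice lay between 11962 and 20907 and the 5 B2D mice between 2224 and 7096, so the groups did not overlap. The sum was 3.61-fold lower in B2D (log2 ratio -1.85, SE 0.322). Alb itself was 24776 ± 3640 FPKM in Ctrl and 25073 ± 4750 in B2D.

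**Figure D1:**
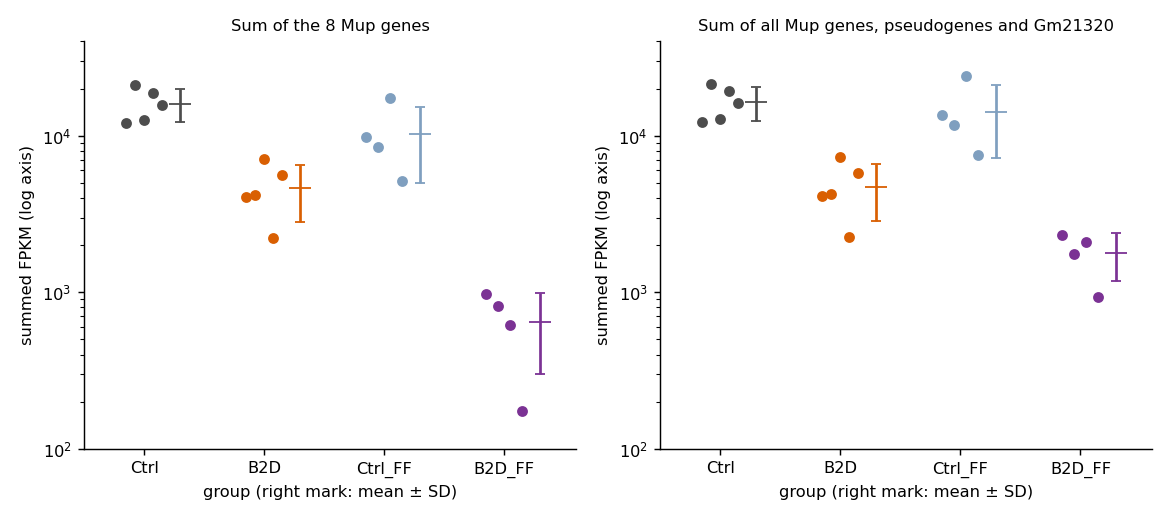
Summed FPKM (log axis) in each library (points) by group, for the 8 Mup genes (left) and for all Mup genes, pseudogenes and Gm21320 (right), with the group mean ± SD beside the points. B2D lies below Ctrl and B2D_FF below Ctrl_FF in both panels, and the B2D_FF mean is 647 FPKM on the left and 1776 on the right.

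With fenofibrate the sum of the 8 genes was 10172 ± 5162 FPKM in Ctrl_FF (n = 4) and 647 ± 347 in B2D_FF (n = 4). The Ctrl_FF mice lay between 5109 and 17338 and the B2D_FF mice between 176 and 980.2, again without overlap. The sum was 17.1-fold lower in B2D_FF (log2 ratio -4.09, SE 0.666). As a share of Alb it went from 66.3% ± 36.0 to 5.32% ± 2.94. Alb was 15530 ± 1152 FPKM in Ctrl_FF and 12138 ± 758 in B2D_FF. In bulk liver, fewer hepatocytes and less RNA per hepatocyte cannot be told apart.

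Mup3 was the most abundant member in Ctrl, and all its stretches of read length are unique to it. The 5 Ctrl mice had 7169, 11333, 7589, 10451 and 8662 FPKM, and the 5 B2D mice 3370.1, 3706, 5450.2, 1814 and 4817. The highest B2D mouse was below the lowest Ctrl mouse, and the mean was 42.4% of that of Ctrl. Of the 8 genes in B2D against Ctrl, only Mup12, with few reads, had a log2 fold change closer to 0 than that of Mup3 (-1.31, SE 0.264). With fenofibrate the Ctrl_FF mice had 1577, 1947, 2257 and 1288 FPKM and the B2D_FF mice 17.9, 133, 112 and 74.6. The B2D_FF mean was 4.77% of the Ctrl_FF mean (log2 fold change -4.66, SE 0.540). The B2D_FF mouse numbered 1 held the fewest Mup3 reads, 325, against 23313 or more in every Ctrl_FF mouse.

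Mup20, which codes for darcin, was next in level. Ctrl mice had 3563, 7428, 3975, 5619 and 5568 FPKM and B2D mice 546, 410.2, 1126, 368 and 658. All 5 B2D mice thus lay far below the lowest Ctrl mouse, with the mean at 11.9% of Ctrl (log2 fold change -3.14, SE 0.294). In the fenofibrate experiment, Ctrl_FF mice had 1394, 1053, 2255 and 640.5 FPKM and B2D_FF mice 26.0, 81.5, 106 and 37.6. The mean of B2D_FF was 4.70% of Ctrl_FF (log2 fold change -4.45, SE 0.487), with no overlap.

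Mup21, the gene closest to Mup3 in sequence, was far less abundant. Ctrl mice had 263, 418, 169.8, 459 and 478 FPKM and B2D mice 35.9, 17.0, 126, 30.7 and 44.7. B2D did not overlap Ctrl, although the B2D mouse numbered 3 stood well above the other 4. The log2 fold change was -3.01 (SE 0.450). Ctrl_FF mice had 75.1, 51.0, 93.0 and 28.7 FPKM and B2D_FF mice 1.47, 6.54, 6.35 and 4.04, a log2 fold change of -3.49 (SE 0.425). Mup3 and Mup21, the pair whose every stretch of read length is unique, summed to 9398 ± 1900 FPKM in Ctrl and 3882 ± 1435 in B2D, which was 2.54-fold lower (log2 ratio -1.35, SE 0.305). For Ctrl_FF and B2D_FF their sums were 1829 ± 445 and 89.0 ± 52.8, which was 25.2-fold lower (log2 ratio -4.66, SE 0.672).

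**Figure D2:**
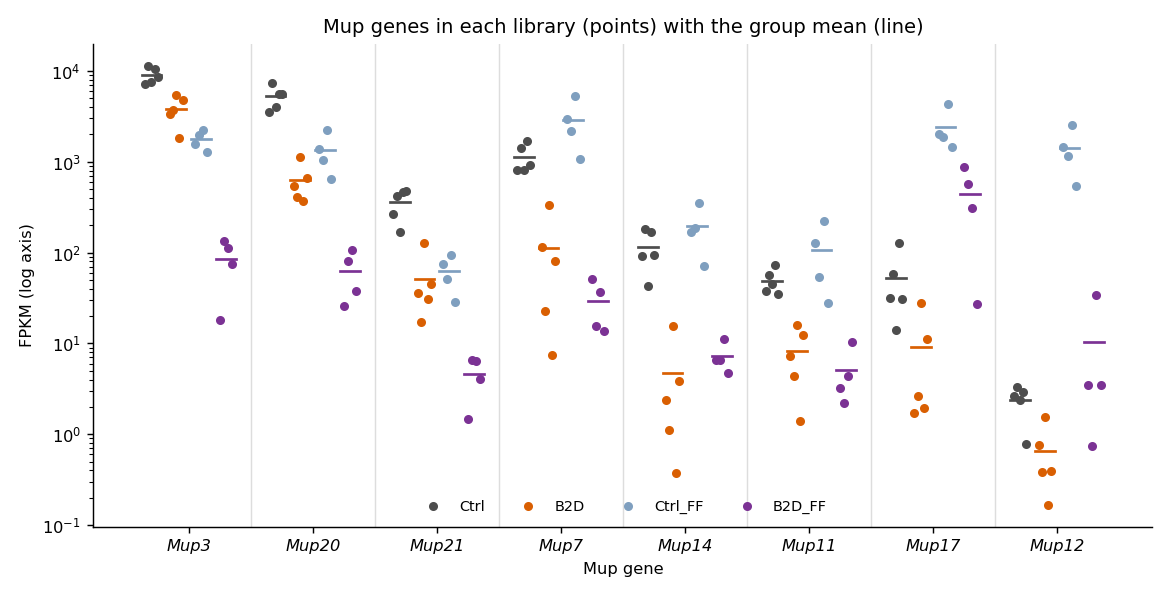
FPKM (log axis) of each Mup gene in every library (points) with the group mean (line), coloured by group, with 5 mice in Ctrl and B2D and 4 in Ctrl_FF and B2D_FF. B2D points lie below Ctrl points for 6 genes and overlap them for Mup12 and Mup17, and B2D_FF points lie below Ctrl_FF points for all 8.

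Mup7 was the most abundant near-identical gene in Ctrl. Ctrl mice had 804, 1427, 801, 1695 and 914 FPKM and B2D mice 114, 22.5, 332, 7.38 and 80.4. The groups did not overlap, and the B2D mice spread over a far wider ratio than the Ctrl mice (log2 fold change -4.23, SE 0.781). Ctrl_FF mice had 2945, 2160.1, 5288 and 1069 FPKM and B2D_FF mice 51.5, 15.6, 36.8 and 13.8. The B2D_FF mean was 1.03% of the Ctrl_FF mean (log2 fold change -6.53, SE 0.532).

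Mup14 had the log2 fold change furthest below 0 of the 8 genes without fenofibrate. Ctrl mice had 90.9, 183, 43.0, 168 and 93.3 FPKM and B2D mice 2.36, 1.10, 15.7, 0.373 and 3.81, at 4.03% of the Ctrl mean (log2 fold change -4.77, SE 0.592). With fenofibrate, 169, 187, 350.5 and 71.7 FPKM in Ctrl_FF stood against 6.54, 6.51, 11.1 and 4.70 in B2D_FF (log2 fold change -4.42, SE 0.422). Mup11 was lower in level in Ctrl, between 34.5 and 72.8 FPKM, and between 1.41 and 16.0 in B2D (log2 fold change -2.68, SE 0.445). It lay between 27.7 and 222 FPKM in Ctrl_FF and between 2.21 and 10.4 in B2D_FF (log2 fold change -3.93, SE 0.615). Neither gene overlapped between diets in either experiment.

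Mup17 and Mup12 were the genes whose ranges overlapped without fenofibrate. Mup17 was at 31.3, 57.6, 14.1, 127 and 30.6 FPKM in Ctrl and at 1.70, 2.65, 27.7, 1.95 and 11.1 in B2D, where only the mouse numbered 3 reached the Ctrl range (log2 fold change -2.70, SE 0.694). In the fenofibrate experiment the same gene was at 1994, 1889.85, 4306 and 1441 FPKM in Ctrl_FF and at 870.1, 568, 305 and 26.8 in B2D_FF. There it kept 18.4% of the Ctrl_FF mean, the highest such share of the 8 genes, and its log2 fold change of -3.11 (SE 0.935) became -2.04 without the B2D_FF mouse numbered 4. Mup12 was barely detected without fenofibrate, with 15 to 53 reads (0.775 to 3.29 FPKM) in Ctrl mice and 3 to 25 reads (0.167 to 1.54 FPKM) in B2D mice. Its log2 fold change of -1.04 (SE 0.253) became -1.88 with a pseudocount of 0.1 in place of 1. Ctrl_FF mice had 1457, 1162, 2567 and 542 FPKM of Mup12 and B2D_FF mice 3.49, 0.743, 33.9 and 3.48, or 0.726% of the Ctrl_FF mean (log2 fold change -7.71, SE 0.825).

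In B2D against Ctrl, 6 of the 8 genes were lower without overlap. Of 11574 genes that passed a filter on low values (mean FPKM 0.5 or more), 2.89% were lower in B2D without overlap and 2.08% higher. All 8 Mup genes passed that filter in both experiments. Since the same contrast picked the genes, nothing is read from the difference between these shares. The median log2 fold change of the 8 was -2.85, beside -0.00132 over all genes. In B2D_FF against Ctrl_FF, 8 of 8 were lower without overlap, beside 6.44% of 11878 genes lower and 7.82% higher. The genes were selected on values of these same libraries, so nothing is read from these shares either. The median of the 8 was -4.44, beside 0.0128 over all genes. Log2 fold changes of genes were computed with 1 added to each FPKM, so those of weakly expressed genes are too small.

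**Figure D3:**
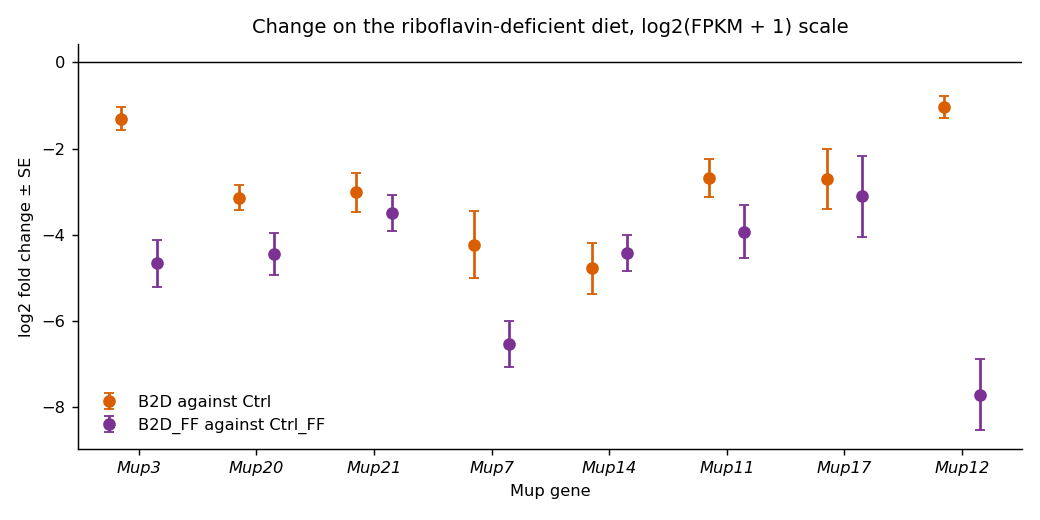
Log2 fold change ± SE on the log2(FPKM + 1) scale of each Mup gene, for B2D against Ctrl (5 mice each) and B2D_FF against Ctrl_FF (4 mice each). All 16 values are below 0, from -1.04 for Mup12 without fenofibrate to -7.71 for Mup12 with it.

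The sums of the divergent and of the near-identical genes were not lower by the same amount without fenofibrate. In Ctrl and B2D, Mup3 made up most of the divergent sum and Mup7 most of the near-identical sum. By single genes the classes were not apart. Mup20 (log2 fold change -3.14) and Mup21 (-3.01) were further below 0 than Mup11 (-2.68), Mup17 (-2.70) and Mup12 (-1.04). Mup3 was at -1.31, Mup7 at -4.23 and Mup14 at -4.77. The divergent genes summed to 14629 ± 3388 FPKM in Ctrl and 4504 ± 1700 in B2D, 3.39-fold lower (log2 ratio -1.76, SE 0.310). The near-identical genes summed to 1348 ± 519 and 134 ± 153, 17.8-fold lower (log2 ratio -4.15, SE 0.916). With fenofibrate the log2 ratios were -4.57 (SE 0.599) for the divergent and -4.20 (SE 0.968) for the near-identical genes. With Gm21320, a further near-identical copy of the cluster, the near-identical sum was 12.6-fold lower without fenofibrate (-3.65, SE 0.727) and 8.37-fold lower with it (-3.06, SE 0.643). These differences between sums were not tested.

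The make-up of the sum differed between groups. Mup3 made up 57.1% of the FPKM of the 8 genes in Ctrl (range 54.2% to 60.05%) and 83.1% in B2D (76.8% to 89.0%), without overlap. Mup20 went the other way, from 32.5% (29.8% to 35.5%) to 13.5% (9.85% to 16.5%). Mup7 made up 6.96% in Ctrl and 1.96% in B2D. By level, Mup3 and Mup20 overlapped in Ctrl but stood apart in B2D. In Ctrl_FF the leading gene was Mup7 with 26.8%, followed by Mup17 with 23.9%, Mup3 with 19.3%, Mup12 with 13.5% and Mup20 with 13.1%. Apart from Mup20 and Mup14, all neighbours in this order of level overlapped in their ranges over the 4 mice. In B2D_FF, Mup17 made up 55.9% on average, but from 15.3% to 88.8% in single mice, and Mup3 19.7% (1.82% to 42.5%). Over all 21 Mup genes, Mup17 made up 34.4% in B2D_FF, Mup18 23.2%, Mup10 9.62% and Mup3 8.66%.

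**Figure D4:**
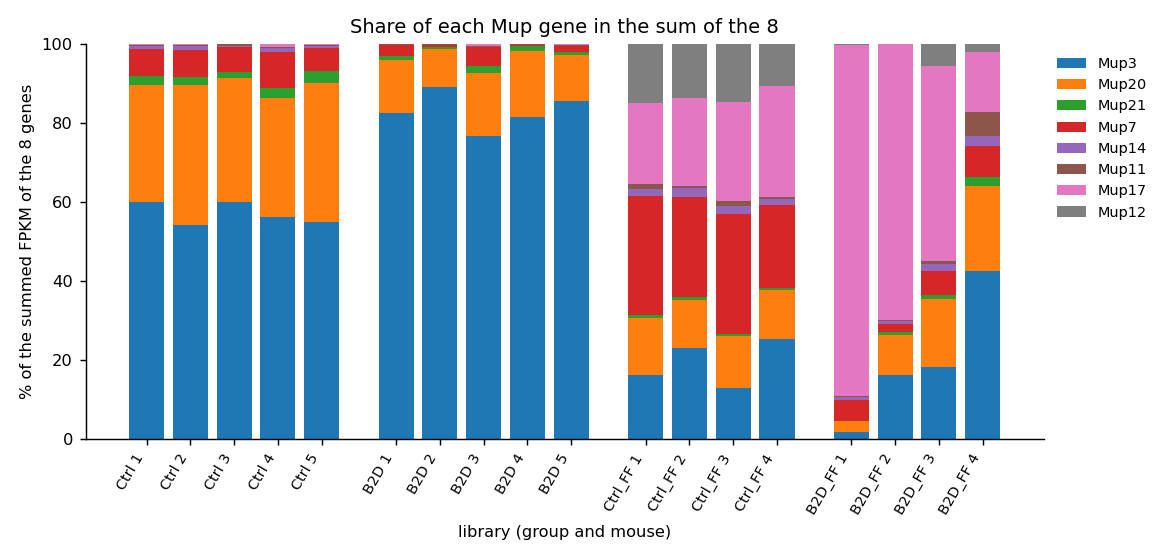
Share of each Mup gene in the summed FPKM of the 8, one stacked bar per library. Mup3 and Mup20 fill most of each Ctrl and B2D bar, Mup7, Mup17 and Mup12 take large parts of the Ctrl_FF bars, and Mup17 reaches 88.8% in 1 B2D_FF mouse.

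The means of single genes in the 2 control groups differed in opposite directions. All 3 divergent genes were, without overlap, at higher FPKM in Ctrl than in Ctrl_FF, by 5.12-fold for Mup3, 3.92-fold for Mup20 and 5.77-fold for Mup21. All 5 near-identical genes had higher means in Ctrl_FF, by 598-fold for Mup12 and 46.2-fold for Mup17. Mup7 (2.54-fold), Mup11 (2.19-fold) and Mup14 (1.68-fold) overlapped between the control groups. Of 11 other Mup genes, 10 had higher means in Ctrl_FF and 1, Mup2, had a higher mean in Ctrl (7.46 against 2.19 FPKM). Mup18 was at 0.823 FPKM in Ctrl and 769 in Ctrl_FF, and Mup13 at 0.195 and 78.5. These values stand side by side without a test, because fenofibrate, age, weeks of diet and the table they were scaled in cannot be told apart. A different choice of gene for reads that match several copies was not tested.

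In B2D and Ctrl_FF, single mice were high or low for most Mup genes at once. The B2D mouse numbered 3 was the highest of its group for 8 of 8 genes and the one numbered 4 the lowest for 6. The Ctrl_FF mouse numbered 3 was the highest for 8 of 8 and the one numbered 4 the lowest for 8 of 8. In B2D_FF no mouse was the highest or the lowest for more than 3 genes, and in Ctrl none for more than 4. After subtraction of group means, the 3 pairs of divergent genes had Pearson r between 0.58 and 0.88 over the 10 mice without fenofibrate and between 0.79 and 0.94 over the 8 with it. The 10 pairs of near-identical genes had a median r of 0.72 (0.51 to 0.93) without fenofibrate and 0.54 (-0.24 to 0.81) with it. The 15 pairs of a divergent and a near-identical gene had a median r of 0.80 (0.35 to 0.93) without fenofibrate and 0.33 (-0.26 to 0.78) with it. The points of each pair share the library and its scaling, and near-identical genes also share reads.

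Most of the other Mup genes that passed the filter had the same direction. Of 13, 6 passed the filter without fenofibrate, and all 6 had lower means on the log scale in B2D. Of these, 4 were lower without overlap, beside 2.89% of all genes. Their log2 fold changes ran from -3.66 (SE 0.807) for Mup15 to -0.70 (SE 0.187) for Mup6. With fenofibrate 11 passed, and 10 were lower in B2D_FF, 7 of them without overlap, beside 6.44% of all genes. The filter is on the mean over both diets. Mup6 without fenofibrate (1.07 FPKM in Ctrl, 0.230 in B2D) passed only through the control group. With fenofibrate so did Mup8 (8.75 in Ctrl_FF, 0.148 in B2D_FF), Mup1 (10.1 and 0.492), Mup2 (2.19 and 0.292) and Mup9 (1.32 and 0.281). Such genes could only be lower, so nothing is read from these counts. Of the stretches of 150 bases in Mup15, 9.28% were unique to it, and its FPKM was 190.0, 300.3, 142, 564 and 263 in Ctrl against 7.40, 6.33, 158, 5.90 and 54.7 in B2D. Mup18, with the highest FPKM of these 13 genes in Ctrl_FF, was at 738, 669, 1193 and 474 FPKM in Ctrl_FF and 379, 242, 264 and 147 in B2D_FF (log2 fold change -1.57, SE 0.324). Mup13 was at 177, 16.3, 76.3 and 44.3 in Ctrl_FF and 107, 63.5, 33.6 and 1.69 in B2D_FF, with overlap. Mup10 was the exception, with a log2 fold change of 1.09 (SE 1.47) that rested on 1 mouse. It was at 254 FPKM in the B2D_FF mouse numbered 4 and at 3.35 or below in every other library. Of 27 Mup pseudogenes, 6 passed the filter without fenofibrate (5 lower, 1 higher) and 7 with it (7 lower). The same limit holds for these counts. Mup-ps15 with fenofibrate (1.16 FPKM in Ctrl_FF, 0.0453 in B2D_FF), and Mup-ps7 and Mup-ps14 in both experiments, passed only through the control group. Mup-ps19, the only one with read-length stretches in common with Mup20, had log2 fold changes of -2.30 (SE 0.308) and -6.01 (SE 0.735).

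A gene listed as Gm21320 lay inside the cluster, at 60817589 to 60821463 on the minus strand. Its Ensembl identifier, ENSMUSG00000110439, carries the name Mup22 in GENCODE M21. Its transcript shared between 98.7% and 99.4% of aligned bases with the near-identical genes, and no stretch of 150 bases in it was unique. In Ctrl it was at 32.0 ± 8.24 FPKM and in B2D at 21.6 ± 10.5 (log2 fold change -0.64, SE 0.287, adjusted p = 0.264 by limma). In Ctrl_FF it was at 2071 ± 536 FPKM, and in B2D_FF at 668 ± 333, close to the 647 FPKM of the 8 genes together. With fenofibrate it fell without overlap (log2 fold change -1.76, SE 0.374, adjusted p = 0.0325). That call was lost when any single Ctrl_FF mouse, or the B2D_FF mouse numbered 1 or 2, was left out (adjusted p from 0.0181 to 0.0935 over the 8 omissions). With Gm21320 and all Mup genes and pseudogenes in the sum, the B2D_FF sum was 7.72-fold lower than that of Ctrl_FF (log2 ratio -2.95, SE 0.452) in place of 17.1-fold. Without fenofibrate the same sum was 3.64-fold lower in B2D, beside 3.61-fold.

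Genes around the cluster were tested for comparison. Within 1 Mb of the outermost Mup genes lay 30 protein-coding genes beside Gm21320 and the Mup genes, none of them inside the cluster. Of 17 tested without fenofibrate, 1 was called at an adjusted p under 0.05 (limma, Benjamini-Hochberg over all genes), beside 2.70% of all genes tested. It was Alad, for an enzyme of haem synthesis (log2 fold change -0.48, SE 0.101, adjusted p = 0.0284). The call was lost without any 1 of 7 mice, Ctrl 1, Ctrl 2, Ctrl 4 or B2D 2, 3, 4 or 5 (adjusted p up to 0.0788). The log2 fold changes of the 17 ran from -0.55 to 0.19, and 5 had an unadjusted p under 0.05. With fenofibrate 16 were tested, limma called 0 of them, 2 had an unadjusted p under 0.05, limma voom on reads recovered from the FPKM called 0, and their log2 fold changes ran from -0.48 to 0.14.

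Growth hormone signalling is a known input to the family, and the receptor gene was lower on the deficient diet in both experiments. Of 11 genes of the axis tested without fenofibrate, 1 fell and 1 rose, beside 2.70% of all genes called. Ghr, the growth hormone receptor, was at 46.6, 54.6, 38.6, 59.98 and 42.9 FPKM in Ctrl and 27.8, 22.4, 32.5, 27.3 and 34.3 in B2D (log2 fold change -0.73, SE 0.147, adjusted p = 0.0265 by limma). The groups did not overlap. The call was lost without Ctrl 1, 2 or 4 or B2D 2 or 4 (adjusted p up to 0.0785). Cux2, a transcription factor known from female liver, rose from 0.0417 ± 0.0449 to 1.82 ± 0.480 FPKM (log2 fold change 1.42, SE 0.121, adjusted p = 0.000524). It held 1 to 23 reads in Ctrl mice and passed the filter only through B2D, so it could be called only as higher. Stat5b, the factor through which pulses of the hormone act, was at 7.53 ± 1.02 and 8.18 ± 0.995 FPKM (log2 fold change 0.11, adjusted p = 0.639). Stat5a (-0.05, adjusted p = 0.794) and Bcl6, a repressor at STAT5 sites (0.53, adjusted p = 0.494), did not pass either.

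With fenofibrate 10 genes of the axis were tested, beside 4.45% of all genes called in either direction, and 2 fell. Ghr fell from 37.7 ± 3.10 to 23.4 ± 3.59 FPKM (log2 fold change -0.67, SE 0.122, adjusted p = 0.0182). The call was lost without Ctrl_FF 1, 2 or 3 (adjusted p up to 0.0677). Igfals, which codes for the acid-labile carrier subunit of circulating IGF1, had a log2 fold change of -0.52 (SE 0.112, adjusted p = 0.0333). Its call held in 1 of 8 single omissions, that of B2D_FF 1, with adjusted p up to 0.0872 in the rest. Stat5b (-0.07, adjusted p = 0.664), Stat5a (-0.23, adjusted p = 0.226) and Bcl6 (0.42, adjusted p = 0.0914) did not pass. Cux2 missed the filter here and was not tested. It was at 0.0423, 0.0482, 0.0399 and 0.0527 FPKM in Ctrl_FF and at 0.751, 0.712, 0.336 and 0.397 in B2D_FF, without overlap.

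Genes of other hormonal inputs, such as glucocorticoid and thyroid hormone, were tested as a further list. Of 13 tested without fenofibrate, limma called 0, limma voom called 0, and 5 had an unadjusted p under 0.05. With fenofibrate 2 of 13 rose, both known glucocorticoid targets, beside 2.24% of all genes. Limma voom called 2 higher and 1 lower, and 4 had an unadjusted p under 0.05 by limma. Tat, for tyrosine aminotransferase, went from 299 ± 84.6 to 751 ± 181 FPKM (log2 fold change 1.35, SE 0.248, adjusted p = 0.0188, and 0.0577 without Ctrl_FF 1). Fkbp5, a chaperone of steroid receptors, went from 10.1 ± 1.33 to 15.6 ± 2.05 FPKM (log2 fold change 0.58, SE 0.118, adjusted p = 0.0275). Its call was lost without any mouse but Ctrl_FF 4 or B2D_FF 2, with adjusted p up to 0.0927. The glucocorticoid receptor gene Nr3c1 had log2 fold changes of -0.19 and -0.20 (adjusted p = 0.401 and 0.174).

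**Figure D5:**
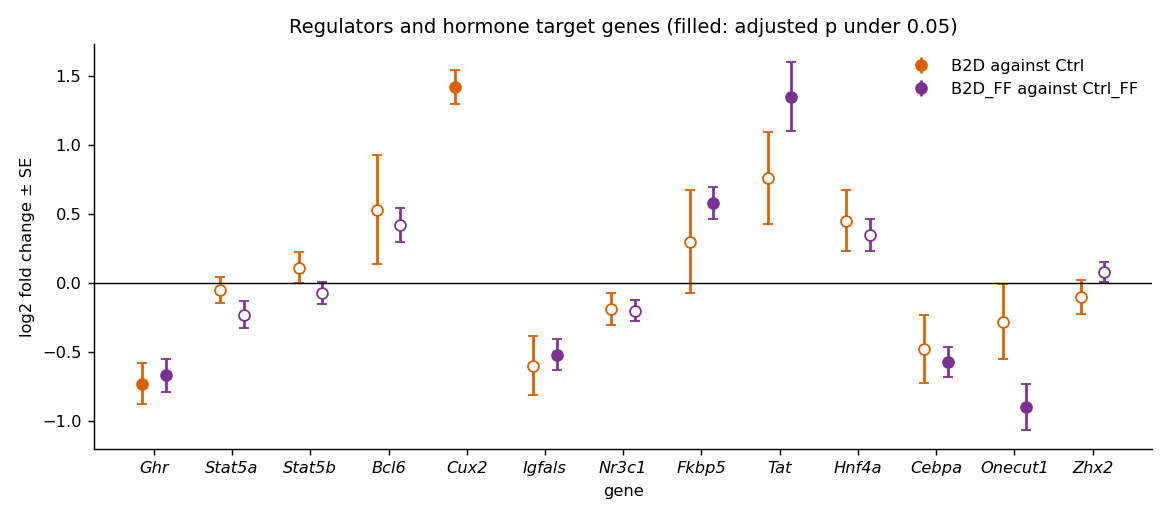
Log2 fold change ± SE on the log2(FPKM + 1) scale of growth hormone axis genes, glucocorticoid-related genes and liver transcription factors, with filled points past an adjusted p of 0.05. Ghr is filled in both comparisons, and Stat5a, Stat5b, Bcl6, Nr3c1, Hnf4a and Zhx2 in neither.

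Hepatocyte transcription factors were tested as a further group of 17. Without fenofibrate limma called 0, limma voom called 0, and 2 had an unadjusted p under 0.05. With fenofibrate 2 fell, beside 2.21% of all genes, and limma voom called 2 lower and 1 higher. There 9 of the 17 had an unadjusted p under 0.05 by limma. Onecut1, whose motif letters were in all 6 promoter windows, fell from 3.31 ± 0.535 to 1.35 ± 0.597 FPKM (log2 fold change -0.90, SE 0.168, adjusted p = 0.0203). Cebpa, a hepatocyte differentiation factor, fell from 95.7 ± 5.60 to 64.3 ± 8.67 FPKM (log2 fold change -0.57, SE 0.108, adjusted p = 0.0205). The call of Onecut1 was lost without Ctrl_FF 1 or 3 or B2D_FF 1 or 4 (adjusted p up to 0.0677). That of Cebpa was lost without Ctrl_FF 1 or 2 or B2D_FF 1 or 4 (adjusted p up to 0.0775). Hnf4a had log2 fold changes of 0.45 and 0.35 (adjusted p = 0.308 and 0.128). Zhx2, a repressor of several liver genes, had -0.10 and 0.08 (adjusted p = 0.704 and 0.551).

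Other male-biased liver genes fell beside the Mup genes. Of 22 tested, 15 fell and 0 rose without fenofibrate, beside 1.94% of all genes lower and 0.769% higher. The 15 include Hsd3b5 (18.6 FPKM in Ctrl, 0.379 in B2D), which passed the filter only through Ctrl and could only be lower. With fenofibrate 11 of 21 fell and 0 rose, beside 2.21% and 2.24%. Their median log2 fold changes were -1.68 and -0.970, beside -0.00132 and 0.0128 over all genes. The first count was 7 without Ctrl 2 and 8 without Ctrl 4, and the second 5 without Ctrl_FF 1 and 7 without B2D_FF 4. The diet effect differed between experiments for 1 of 21, beside 0.0816% of all genes higher and 0.0635% lower in that test. This was Gstp1, whose log2 fold change, though not its level, was higher with fenofibrate. Hsd3b2, a steroid dehydrogenase gene, went from 9.79 ± 2.94 to 2.33 ± 0.928 FPKM (log2 fold change -1.70, SE 0.230, adjusted p = 0.00484). In B2D_FF against Ctrl_FF its log2 fold change was -1.19 (SE 0.146, adjusted p = 0.00391). Serpina1e, a secreted antiprotease of another multigene family that can share reads with its paralogs, went from 1279 ± 275 to 119 ± 98.8 FPKM (log2 fold change -3.92, SE 0.577, adjusted p = 0.00649). With fenofibrate it went from 103 ± 88.3 to 8.02 ± 3.12 FPKM (log2 fold change -3.21, SE 0.507, adjusted p = 0.0113).

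Female-biased genes went the other way. Of 19 tested without fenofibrate, 11 rose and 0 fell, beside 0.769% of all genes higher and 1.94% lower. With it 6 of 17 rose and 0 fell, beside 2.24% and 2.21%. The 11 include Cux2, counted among the growth hormone genes as well. Cux2, Cyp2b9 (0.355 FPKM in Ctrl, 55.4 in B2D) and Cyp2b10 (0.0770 in Ctrl, 3.72 in B2D) passed the filter only through B2D and could only be higher. The medians of the list were 0.966 and 0.559, beside -0.00132 and 0.0128 over all genes. The first count was 6 without Ctrl 2 or Ctrl 4 and 7 without Ctrl 1 or B2D 4. Slco1a4, a transporter gene, rose from 14.5 ± 4.80 to 52.4 ± 18.9 FPKM (log2 fold change 1.78, SE 0.255, adjusted p = 0.00557). With fenofibrate it rose from 1.46 ± 0.377 to 12.9 ± 2.70 FPKM (log2 fold change 2.49, SE 0.161, adjusted p = 0.000356). Fmo2, for a flavin-containing monooxygenase, rose in both (log2 fold changes 1.67 and 1.09, adjusted p = 0.00972 and 0.00843). Both sex-biased lists were written with earlier results of these libraries known, so that their direction is no independent evidence.

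Other abundant secreted liver proteins, such as albumin, apolipoproteins and transferrin, were tested as a group of 22. Limma called 0 without fenofibrate, where 5 had an unadjusted p under 0.05 and limma voom called 1. With fenofibrate limma called 2 lower, beside 2.21% of all genes lower. There 11 had an unadjusted p under 0.05, and limma voom called 3 lower. Serpina1c fell from 158 ± 21.6 to 62.4 ± 15.7 FPKM in B2D_FF (log2 fold change -1.35, SE 0.178, adjusted p = 0.00527). Serpina1a had a log2 fold change of -0.60 (SE 0.125, adjusted p = 0.0312), lost without Ctrl_FF 1, 2 or 3 or B2D_FF 2 or 4 (adjusted p up to 0.104). The median of the list was -0.178 without and -0.214 with fenofibrate. Among 8 tested lipocalins outside the family, 1 passed as higher in each comparison, beside 0.769% and 2.24% of all genes higher. Of the 8, 5 had a log2 fold change below 0 without fenofibrate and 3 with it (medians -0.112 and 0.107). Lcn2, an acute-phase lipocalin, had a log2 fold change of 0.83 (SE 0.198, adjusted p = 0.0477) in B2D, and its call held in 1 of 10 single omissions, that of B2D 3 (adjusted p up to 0.135 in the rest). Orm3, an acute-phase carrier, had 1.03 (SE 0.160, adjusted p = 0.0105) in B2D_FF.

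Defining markers of hepatocytes were present at high levels in every library. The sum of 8 such markers ranged from 36814 to 47657 FPKM for Ctrl and from 36913 to 51916 for B2D. For Ctrl_FF it ranged from 26589 to 30769 and for B2D_FF from 22951 to 28084. Alb, 1 of the 8, weighed heavily in these sums. Its mean was 24776 FPKM in Ctrl, 25073 in B2D, 15530 in Ctrl_FF and 12138 in B2D_FF. Of the 8 markers, Cyp2f2 fell in B2D (log2 fold change -1.26, adjusted p = 0.00557 by limma) and Ass1 rose in B2D_FF (0.75, adjusted p = 0.0455). Of 8 Kupffer cell markers, Clec4f and C1qa fell in B2D (-0.47 and -0.50, adjusted p = 0.0412 and 0.0275), and the list summed to 104 to 131 FPKM for Ctrl and 82.0 to 115 for B2D. For Ctrl_FF that sum was 83.6 to 141 and for B2D_FF 54.6 to 140.4. Of 6 endothelial markers, Lyve1 rose in B2D_FF (0.77, adjusted p = 0.0294). Of 5 erythroid markers, Alas2 fell in both comparisons (-1.36 and -1.37, adjusted p = 0.0114 and 0.000918). The erythroid sum ranged from 184 to 249.7 FPKM for Ctrl, 91.2 to 392 for B2D, 437 to 630 for Ctrl_FF and 284 to 689.6 for B2D_FF. The calls of Cyp2f2 and Alas2 held in all single omissions, that of Ass1 in 0 of 8, Lyve1 in 4 of 8, Clec4f in 1 of 10 and C1qa in 4 of 10. Limma and limma voom called 0 of 6 stellate markers and 0 of the cholangiocyte markers tested, 3 of 6 without and 2 of 6 with fenofibrate, and 6 leukocyte markers summed to at most 2.45 FPKM, with 1 listed at 0 in all libraries without fenofibrate. The part of these markers in the Mup levels was not tested.

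Among genes outside the family, the one whose level followed the Mup sum most closely between mice of a group was Psme2, for a proteasome activator subunit. Its Pearson r was 0.85 over 18 libraries, after subtraction of group means from log2 values, the highest of 4200 protein-coding genes past a filter of 5 on the mean FPKM of each table. C8b, a complement gene, and Rpl41, a ribosomal protein gene, followed with r = 0.75, then Depdc7 with 0.72 and Mrpl1 with 0.71. At the other end were Miga2 with r = -0.87, Lhpp with -0.81, and Cdk18, Gpt2 and Bcl2l13 with -0.79. Spearman's rho lay between 0.63 and 0.87 for the first 5 genes and between -0.86 and -0.70 for the last 5. Within the 10 libraries without fenofibrate r was 0.61 for Psme2, 0.92 for C8b, 0.14 for Rpl41 and -0.90 for Miga2. Ghr had an r of 0.21 and Stat5b of -0.25. The points of each correlation share library and scaling, and the values are ranks among many genes.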

How the data were processed

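Liver mRNA of 18 mice was sequenced as paired ends of 150 bases. The authors used STAR for alignment to mm10 (GRCm38) and featureCounts for gene counts, and deposited FPKM values in 2 tables, each normalized on its own. Tool versions and the handling of reads that match several genes are not given in the sources used here. In every library the product of FPKM and gene length moved in equal steps, and all values (100%) came out whole to within 0.01 reads, which gave reads per gene. Reads were between 15320729 and 21898502 per library, which limits genes with few reads. The sequence stretches and motifs shown were chosen after the sequences were seen.

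Each table was fitted alone with limma 3.58.1 (R 4.3.3, trend in the variance) on log2(FPKM + 1), for genes whose mean FPKM was 0.5 or more. Adjusted p-values (Benjamini-Hochberg, over all genes tested) had a threshold of 0.05. The difference of diet effects between experiments was a contrast in 1 fit of 18 libraries. On simulated data with normal noise and 200 genes changed by 1 on the log2 scale, 85.5%, 88% and 76% were recovered in the 3 fits. False calls numbered 8, 8 and 2. The changed genes were drawn from those not weakly expressed, so the shares do not hold for weak genes or smaller changes. Each mouse is 1 sample, numbered within its group in the order of accession, and groups came from the labels. The members, the 7 gene lists and the 7 cell marker lists were chosen with earlier results of these data known. Genes named are all members, other Mup genes whose mean FPKM was 0.5 or more in either table, up to 5 called genes of each list per comparison by adjusted p, a fixed set of regulators whether called or not (Ghr, Stat5a, Stat5b, Bcl6, Cux2, Nr3c1, Hnf4a and Zhx2, with some items of the rule not reported here), protein-coding neighbours within 1 Mb, and the 5 highest and 5 lowest correlations with the Mup sum, of which the text gives a part. Sequences were from RefSeq (GRCm38.p6) and GENCODE M21, and identities were computed from local alignments with Biopython 1.88. The alternatives changed the pseudocount to 0.1, dropped the filter or raised it to 5, and used upper quartile and quantile scaling, other sums and single omissions. Chosen after seeing the data were limma voom on the recovered reads and a sum with Gm21320.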

Additional observations from a re-analysis of the deposited data

Results flagged for a closer look

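Single mice stood apart from the rest of their group in 15 of 216 groups of 4 or 5 checked with Dixon's ratio (6.94%). For independent normal values chance alone would give about 1 in 20. The ratio was taken on FPKM without logs, and the genes share mice, so that rate need not hold here. Among the 8 Mup genes, the B2D mouse numbered 3 was high for Mup14 (15.7 FPKM, next 3.81) and Mup21 (126 FPKM, next 44.7), and the B2D_FF mouse numbered 3 was high for Mup12 (33.9 FPKM, next 3.49). Among other Mup genes, the B2D_FF mouse numbered 4 was high for Mup10 (254 FPKM, next 1.24), and the B2D mouse numbered 5 for Mup9 (0.421 FPKM, next 0.114) and Mup18 (0.226 FPKM, next 0.0613).

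Among genes outside the family, the B2D mouse numbered 1 was high for Cebpa (187 FPKM, next 106), and so was the B2D_FF mouse numbered 2 (77.3, next 60.5). The B2D mouse numbered 4 was high for Cyp2b10 (10.6 FPKM, next 2.64) and the one numbered 3 for Nr3c1 (11.0, next 8.79). The Ctrl mouse numbered 3 was high for Cyp39a1 (23.8 FPKM, next 17.4) and Orm3 (2.23, next 0.800). The B2D_FF mouse numbered 2 was low for Fmo2 (6.70 FPKM, next 10.4) and high for Hsd3b5 (0.349, next 0.0379), and the one numbered 1 was high for Serpina1e (12.7, next 6.82).

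The diet effect on Gstp1, a male-biased glutathione transferase gene, differed between experiments by 1.84 on the log2 scale (SE 0.353, adjusted p = 0.0407 by limma). Gstp1 fell without fenofibrate (log2 fold change -1.68, adjusted p = 0.00978), where B2D mice did not overlap Ctrl mice. With fenofibrate its log2 fold change was 0.16 (adjusted p = 0.593). Its mean was 1429 FPKM in Ctrl, 446 in B2D, 294 in Ctrl_FF and 330 in B2D_FF. Over 18 single omissions the adjusted p of the difference ran from 0.0232 to 0.115 and passed in 5. Gstp1 was the 1 gene of the lists with such a call, beside 0.145% of 11031 genes tested.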

How the results depend on the processing

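All 16 log2 fold changes of the 8 genes stayed below 0 in the 239 alternative fits of them, between -8.57 and -0.92, and 2 fits moved a value by more than the spread between mice, both for Mup12 in B2D against Ctrl (-1.88 with a pseudocount of 0.1 and -2.03 with voom). The Mup sum in B2D against Ctrl (log2 ratio -1.85) was -3.24 without Mup3, its highest member, and between -2.03 and -1.61 over single omissions. In B2D_FF against Ctrl_FF (-4.09) it was -2.95 with all Mup genes, pseudogenes and Gm21320, and between -4.38 and -3.55 over single omissions. Without the filter on low FPKM, genes called went from 313 to 67 in B2D against Ctrl, from 529 to 272 in B2D_FF against Ctrl_FF, and from 16 to 25 for the difference of the diet effect, which was 6 at a mean FPKM of at least 5. Over single omissions the first count ran from 98 to 332, with 98 to 161 without Ctrl 1, 2 or 4 or B2D 2 or 4. The second ran from 175 to 596, with 175 to 302 without Ctrl_FF 1, 2 or 3 or B2D_FF 1 or 4. The third ran from 8 to 44, with 44 without B2D 1 and 8 to 10 without B2D 2, Ctrl_FF 1, 2 or 3 or B2D_FF 4. Among other named genes, 905 alternative fits kept direction and side of the threshold, 116 lost a call, 7 gained one and 1 turned direction (Stat5a in B2D, between -0.10 and 0.00 over single omissions, with 0.00 without Ctrl 1, beside -0.05). The causes were not tested. Planned fits with edgeR and DESeq2 were not run, because the deposited values are FPKM and not counts. No paired analysis was possible because the labels number each mouse on its own and share no number between groups. Few reads limit Mup12 without fenofibrate, and shared sequence limits each near-identical gene.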
